A study of Mus musculus with 12 samples.

Results

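Cholesterol leaves the hepatocyte through ATP-binding cassette (ABC) half-transporters and full transporters in the plasma membrane, and it reaches the rest of the cell from lysosomes through the Niemann-Pick proteins. The 9 genes described here were chosen by name as ABC and Niemann-Pick sterol transporters together with their peroxisomal relatives: Abcg5, Abcg8, Abca1, Abcg1, Scarb1, Npc1, Npc2, Abcd2 and Abcd3. All 9 were among the 19938 genes read on the arrays, each from a single probe set that names no other gene. The other 42 measured genes with an ABC transporter symbol served as the nearest comparison. The 9 genes and the related lists were chosen with earlier results of these data known. Counts of calls among them, set beside other genes, are therefore descriptions and not independent tests.

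The livers came from Ppara-/- and Ppara+/+ pups of strain SV129 by the sample labels, whereas the methods name another background strain. Heterozygous parents were crossed so that both genotypes shared a dam and her milk, and litters held to a narrow size range were used. Ppara encodes PPARα, a nuclear receptor activated by fatty acids, and its disruption was present in every cell of the Ppara-/- pups from conception. Each genotype was represented by 6 whole livers taken 2 days after birth (P2), from 3 males and 3 females, with 1 Affymetrix mouse gene array per pup. Pups of 1 litter cannot be recognised from the labels, although by the methods each genotype came from fewer litters than livers, so some livers were from littermates. The p-values take no account of litter. They may be too small where littermates share a genotype, or too large where litters held both genotypes.

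Ppara itself had 10.21 to 10.33 on the log2 scale in Ppara-/- livers and 10.98 to 11.27 in Ppara+/+ livers, and the order of the arrays followed the labelled genotypes. The position of its probe set relative to the disruption is not known here. The array medians lay between 7.157 and 7.199 and every one of the 9 genes had a mean above them. The 8 measured hepatocyte markers averaged 13.46 to 13.49 in the 6 Ppara-/- arrays and 13.42 to 13.51 in the 6 Ppara+/+ arrays.

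ABCG5 and ABCG8 are half-transporters that pair in the canalicular membrane and secrete cholesterol and plant sterols into bile. ABCA1 loads cholesterol and phospholipid onto apolipoprotein A-I, ABCG1 passes cholesterol to lipoprotein particles that already carry lipid, and SCARB1 (SR-BI) takes up cholesteryl ester from high-density lipoprotein. NPC2 and NPC1 hand cholesterol from the lysosomal lumen to the lysosomal membrane, whereas ABCD2 and ABCD3 are peroxisomal half-transporters that import fatty acyl-CoA and bile acid intermediates and are not sterol exporters. Abcg5, Abcg8, Abca1 and Abcg1 are known targets of the oxysterol receptors (LXR), and Abcd2 and Abcd3 respond to PPARα agonists in rodents.

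Abcg5 and Abcg8 lie head to head on chromosome 17 and are transcribed away from each other, so 1 short stretch of DNA precedes both. The RefSeq table (GRCm38.p6) gives Abcg5 1 start site and Abcg8 2 of them. The nearer Abcg8 site is 110 bases from that of Abcg5, and the windows around both share 209 bases. This Abcg8 window is shown because it contains both start sites and because these genes moved together below. It runs from 250 bases before to 50 bases after that Abcg8 start site, on the plus strand at chr17:84682871-84683170, and the capitals mark AGATAA, the core read by GATA factors, on either strand.

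Abcg8 and Abcg5 shared promoter: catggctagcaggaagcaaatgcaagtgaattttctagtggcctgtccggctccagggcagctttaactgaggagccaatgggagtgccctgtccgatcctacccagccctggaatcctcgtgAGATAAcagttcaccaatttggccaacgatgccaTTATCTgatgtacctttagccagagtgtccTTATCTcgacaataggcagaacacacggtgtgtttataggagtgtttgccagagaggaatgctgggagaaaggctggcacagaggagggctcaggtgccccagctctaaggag

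AGATAA occurred 3 times in this window, once on the plus strand and otherwise on the minus strand (TTATCT), at bases -127 to -122, -93 to -88 and -63 to -58 from that Abcg8 start site. Counted from the Abcg5 start site, the same matches lay at bases 12 to 17, -22 to -17 and -52 to -47. The first match therefore precedes Abcg8 but not Abcg5. The window of the other Abcg8 start site, at chr17:84676052-84676351, held 0 of them. AGATAA was searched for after the sequence had been read. Of the 32851 promoter windows of 300 bases in the RefSeq table, 11.2% held AGATAA on either strand and 0.107% held it 3 times or more. Npc2 held it once, at bases -62 to -57.

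The nuclear receptor half-site AGGTCA was searched on both strands, alone and as direct repeats of it with a spacing of 1 base (DR1, the form bound by PPARα with RXR) or 4 bases (DR4, the form bound by LXR with RXR), allowing at most 2 mismatches over the pair. None of the 7 windows of Abcg5, Abcg8, Abca1, Npc2 and Abcd3 held any of these letters, against 16.3% of all windows with a half-site, 3.86% with a DR1 and 3.02% with a DR4. Only these windows were searched. Abcg1, Scarb1, Npc1 and Abcd2 had no entry in the table.

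At P2, 4 of the 9 genes were lower in Ppara-/- livers and 1 was higher, at an adjusted p under 0.05 (limma with sex as a covariate, Benjamini-Hochberg adjustment over all 35556 probe sets). Abcg5, Abcg8, Abcd2 and Abcd3 fell and Npc1 rose, while Abca1, Abcg1, Scarb1 and Npc2 were not called. Over all genes 1.12% were lower and 1.99% higher by the same rule. The median log2 fold change was -0.06 over the 9 genes and -0.01 over all genes, so the transporters did not shift as a block. In whole liver, fewer cells of a type and less RNA per cell cannot be told apart.

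**Figure D1:**
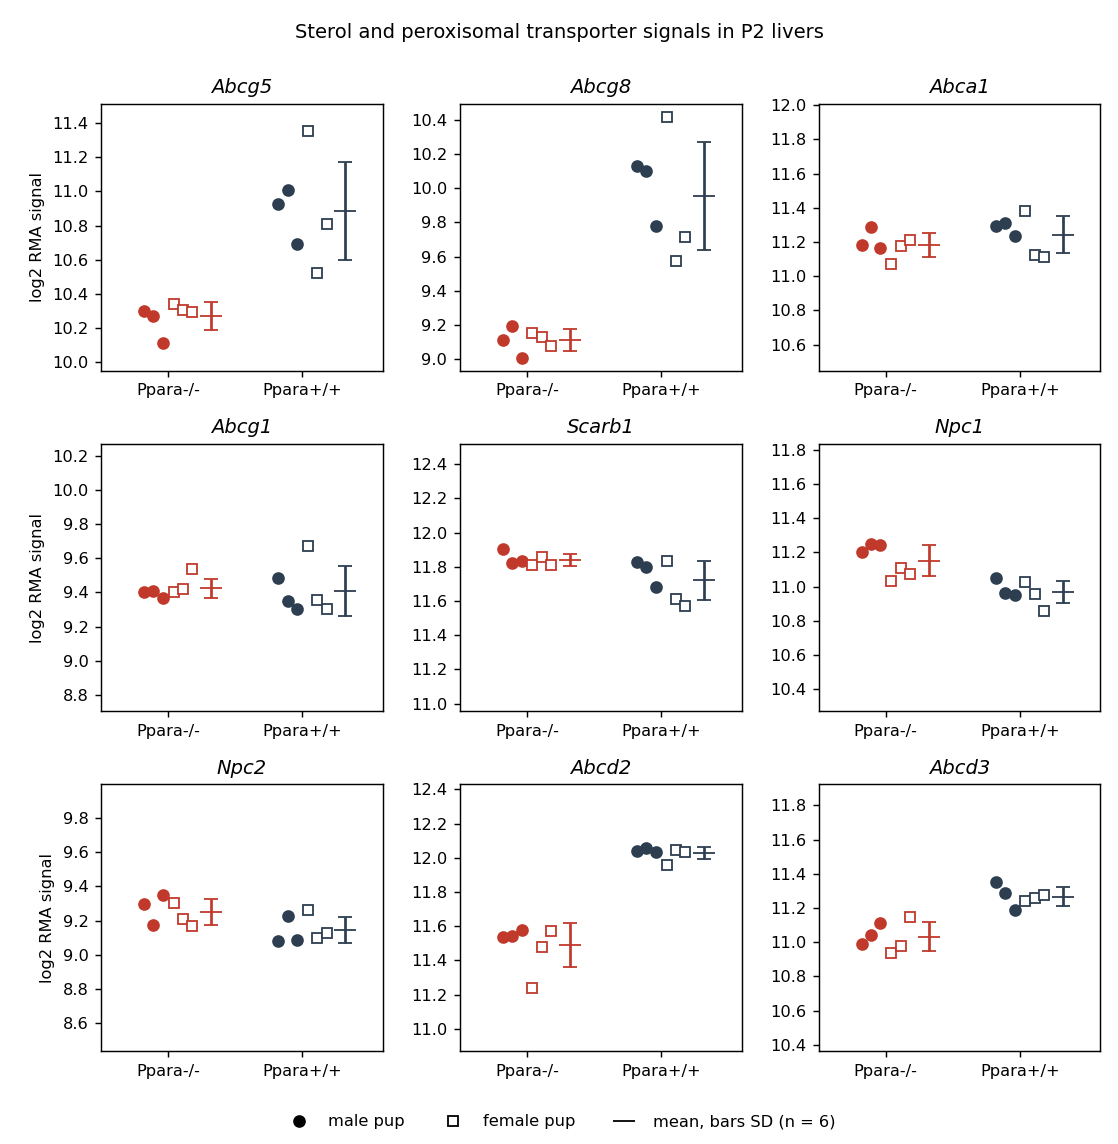
Log2 RMA signal (vertical axis, the same span in each panel) of the 9 transporter genes in P2 livers, with Ppara-/- on the left and Ppara+/+ on the right of each panel; filled circles are males, open squares females, and the bars give mean and SD (n = 6 each). The Ppara-/- points of Abcg5, Abcg8, Abcd2 and Abcd3 all lie below every Ppara+/+ point, and those of the other 5 genes overlap with Ppara+/+.

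Both genes of the biliary sterol exporter fell. Abcg8 had the largest fall of the 9 genes, also in every alternative fit, whereas the order of Abcg5 and Abcd2 was not fixed: without Ppara+/+ replicate 7 the log2 fold change of Abcd2 was -0.55 and the log2 fold change of Abcg5 was -0.52, and with array weights Abcd2 also had the larger fall. Abcg8 had a lowest value of 9.01, a median of 9.12 and a highest of 9.19 (log2) in Ppara-/- livers, against 9.58, 9.94 and 10.42 in Ppara+/+ livers. No Ppara-/- liver reached the lowest Ppara+/+ liver, a pattern found in 1.43% of all genes. The means were 9.11 ± 0.06 in Ppara-/- and 9.95 ± 0.32 in Ppara+/+ livers (SD, n = 6 each). The log2 fold change was -0.84 with SE 0.125, or 0.558 times the Ppara+/+ signal (adjusted p = 0.00372 from limma).

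Its partner Abcg5 ran from 10.11 to 10.34 with a median of 10.30 in Ppara-/- livers and from 10.52 to 11.35 with a median of 10.87 in Ppara+/+ livers. These ranges did not overlap either. The means were 10.27 ± 0.08 in Ppara-/- and 10.89 ± 0.29 in Ppara+/+ livers (SD, n = 6 each), and the log2 fold change was -0.62 with SE 0.116 (0.652 times the Ppara+/+ signal, adjusted p = 0.0156 from limma). An exact two-sided permutation test gave p = 0.00216 for each partner, the smallest that 6 against 6 arrays can give. The call of Abcg5 was lost (adjusted p = 0.0840 from limma) only when Ppara-/- replicates 6 and 10 were left out together, out of 23 alternative limma fits.

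The signal of Abcg8 fell further than that of Abcg5. Within each array, the log2 difference between the partners was lower in Ppara-/- than in Ppara+/+ livers by an amount of -0.23 (exact permutation p = 0.00433, two-sided, adjusted p = 0.00866 over 4 pairs of related genes, with the array ranges overlapping). This test was added after the values had been seen, and it compares signals of different probe sets rather than amounts of RNA.

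The spread of both partners differed between genotypes. Among Ppara+/+ livers the SD was 3.51 times that among Ppara-/- livers for Abcg5 and 4.96 times for Abcg8, while the median ratio over all genes was 1.02, and 1.28% of genes had a ratio above that of Abcg5 and 0.376% above that of Abcg8. Scarb1, with a ratio of 3.21 (1.80% of genes above it), and Abcg1, with 2.52 (4.66% above it), were also wider among Ppara+/+ livers. These ratios are given as descriptions, without a test. Ppara+/+ replicate 7, a female, was the highest for both genes, and without it the Ppara+/+ SD was 0.192 for Abcg5 and 0.245 for Abcg8, still above the SDs of the Ppara-/- livers. Without that replicate the log2 fold changes were -0.52 for Abcg5 and -0.73 for Abcg8.

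Abcg5 and Abcg8 varied together from pup to pup. After the mean of each genotype was taken off, Pearson's r was 0.94 over the 12 arrays (permutation p = 0.00098 within genotypes, adjusted p = 0.0353 over the 36 pairs of the 9 genes) and Spearman's rho 0.66 (permutation p = 0.037, adjusted p = 0.373). Leaving out Ppara+/+ replicates 7 and 8, the arrays farthest from the median, gave r = 0.78. Within Ppara-/- livers alone r was 0.73 and within Ppara+/+ livers 0.95 (n = 6 each). The Ppara+/+ value was not particular to this pair: there r was 0.96 for Abca1 with Scarb1 and 0.95 for Abcg8 with Abca1. Within Ppara-/- livers those pairs had r of 0.0022 and 0.21. No other of the 36 pairs passed the adjustment, and the rank correlation of this pair did not.

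**Figure D2:**
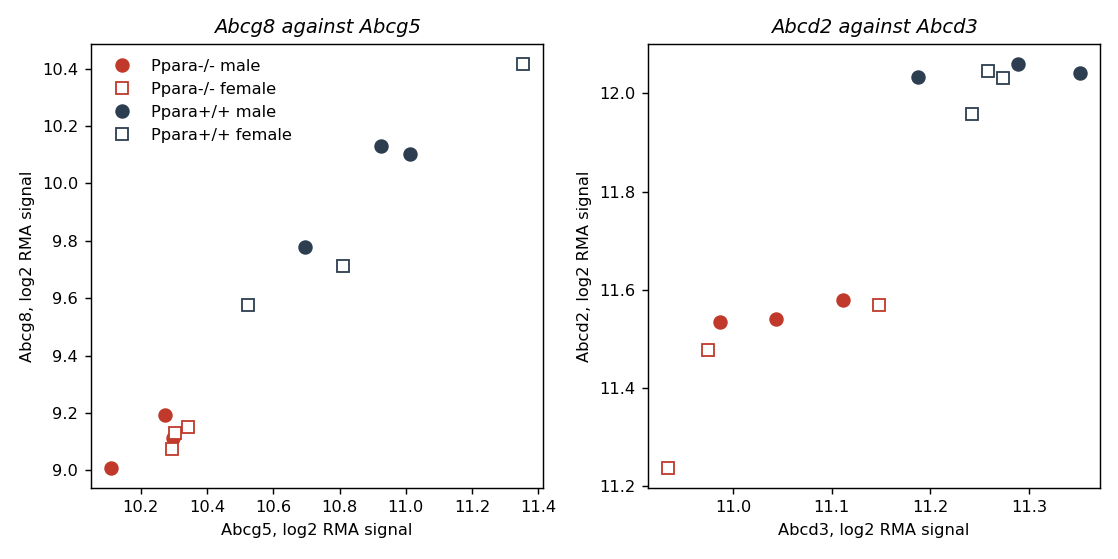
Log2 RMA signal of Abcg8 against Abcg5 (left) and of Abcd2 against Abcd3 (right), 1 point per liver array; red points are Ppara-/- and dark points Ppara+/+, filled circles males and open squares females. In the left panel the Ppara-/- arrays sit at 10.11 to 10.34 for Abcg5 and the Ppara+/+ arrays spread upward along a line, and in the right panel the genotypes form groups that are apart on both axes.

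Among genes with a mean above the array median, Tagap (r = 0.95), Abcg8 (0.94) and Id3 (0.94) were the most like Abcg5 over the 12 arrays after genotype means were taken off, out of 11250 candidates. For Abcg8 they were C2cd2 (0.96), Igf1 (0.94), which encodes a growth factor made in liver, and Igll1 (0.94), a component of the pre-B cell receptor. None of these 5 other genes was called between genotypes. The points share the normalization and the composition of each liver, and without Ppara+/+ replicate 7 these values lay between 0.858 and 0.919.

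Markers of other cells varied over the same livers. All 12 measured Kupffer cell and macrophage markers had log2 fold changes above 0 (median 0.20, none called), with list means of 10.06 to 10.19 in Ppara-/- arrays and 9.77 to 10.18 in Ppara+/+ arrays. All 9 erythroid markers had log2 fold changes below 0 (median -0.18, none called), with list means of 11.28 to 11.67 in Ppara-/- and 11.39 to 11.74 in Ppara+/+ arrays. Of the Ppara+/+ arrays, replicate 7 had the highest Kupffer mean (10.18) and the lowest erythroid mean (11.39). It was also the highest of them for hepatocyte (13.51), liver endothelial (10.36), stellate (9.83) and granulocyte (11.19) means, but not for cholangiocyte markers. Replicate 7 also had the highest Ppara+/+ values of 6 of the 9 transporters, Abcg5, Abcg8, Abca1, Abcg1, Scarb1 and Npc2. Its leaving-out did not end the calls of Abcg5 and Abcg8, and the part of cell composition in the fold changes was not tested.

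The other marker lists gave medians of 0.13 for 10 liver endothelial genes, 0.11 for 8 stellate cell genes, 0.07 for 5 cholangiocyte genes, 0.07 for 9 granulocyte genes and 0.01 for 8 hepatocyte genes, with none of them called by limma. At an unadjusted p under 0.05 the numbers were 9 for the Kupffer list, 7 erythroid, 6 endothelial, 3 stellate, 3 granulocyte, 1 hepatocyte and 0 cholangiocyte, all of them higher in Ppara-/- livers except the erythroid ones, which were lower. By that rule 9.27% of all genes were higher and 7.89% lower. Without Ppara+/+ replicate 7, 5 Kupffer, 3 endothelial and 2 stellate markers were called higher in Ppara-/- livers and 1 erythroid marker lower.

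The transporters that pass cholesterol to plasma lipoproteins gave no call. Abca1 ran from 11.07 to 11.29 with a median of 11.18 in Ppara-/- livers and from 11.11 to 11.38 with a median of 11.26 in Ppara+/+ livers. The ranges overlapped, the log2 fold change was -0.06 with a 95% confidence interval of -0.18 to 0.06, and the adjusted p was 0.655 (limma).

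Abcg1 ran from 9.37 to 9.54 with a median of 9.41 in Ppara-/- livers and from 9.30 to 9.67 with a median of 9.35 in Ppara+/+ livers. Its log2 fold change was 0.01 with an interval of -0.12 to 0.15 (adjusted p = 0.953 from limma), and its sign changed when single arrays were left out. The intervals of Abca1 and Abcg1 do not reach the size of the fall of either Abcg5 or Abcg8. The difference between the changes of Abcg1 and Abca1 was 0.07 (exact permutation p = 0.184, two-sided, adjusted p = 0.21).

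Scarb1, the HDL receptor, ran from 11.81 to 11.90 with a median of 11.83 in Ppara-/- livers and from 11.57 to 11.83 with a median of 11.74 in Ppara+/+ livers. The top Ppara+/+ livers reached the Ppara-/- values and the bottom ones did not. Its log2 fold change of 0.12 had an interval of 0.01 to 0.23, an unadjusted p of 0.0375 and an adjusted p of 0.300 (limma), and it failed the adjustment in all 23 alternative fits. The gene most like it in pup-to-pup variation was Pid1 (r = 0.99, n = 12 arrays), followed by Xylb (0.97) and Pias3 (0.97). Of these Xylb was called higher in Ppara-/- livers (log2 fold change 0.36, adjusted p = 0.0411 from limma) and the others were not called.

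For Abca1 the nearest genes were Ptprf (0.95), Fndc3a (0.95) and Ces1b (0.94), and for Abcg1 they were Cbfb (0.96), Slc17a4 (0.94) and Hk3 (0.93). For the lysosomal pair they were Aim2 (0.97), Cemip2 (0.94) and Yes1 (0.94) for Npc1, and Gp5 (0.91), Sdhaf4 (0.90) and Tbc1d25 (0.89) for Npc2. Without Ppara+/+ replicate 7 the values for Abcg1 were 0.88 (Cbfb), 0.80 (Slc17a4) and 0.75 (Hk3). Those for Abca1, Npc1 and Npc2 then lay between 0.847 and 0.965.

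Npc1 was the only member called higher. It ran from 11.03 to 11.25 with a median of 11.15 in Ppara-/- livers and from 10.86 to 11.05 with a median of 10.96 in Ppara+/+ livers, so the ranges overlapped at their edges. The log2 fold change was 0.18 with SE 0.0424, or 1.14 times the Ppara+/+ signal (adjusted p = 0.0479 from limma, exact permutation p = 0.00433). The call stood close to the threshold: it was lost in 15 of 23 alternative fits, among them the fit without sex and the fits without any 1 of the Ppara-/- arrays or without Ppara+/+ replicate 1, 2, 3, 8 or 9, where the adjusted p reached 0.116, while the log2 fold change stayed between 0.17 and 0.21 in every fit.

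Npc2, the soluble partner in the lysosomal lumen, ran from 9.17 to 9.35 with a median of 9.25 in Ppara-/- livers and from 9.08 to 9.26 with a median of 9.11 in Ppara+/+ livers. The values were interleaved. Its log2 fold change of 0.10 (interval -0.01 to 0.21) was not called (adjusted p = 0.363 from limma), and the change of Npc1 exceeded it by 0.08, which was not past the threshold (exact permutation p = 0.21, adjusted p = 0.21).

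The peroxisomal half-transporters fell in every Ppara-/- liver. Abcd2, which imports very long chain and polyunsaturated acyl-CoA, ran from 11.24 to 11.58 with a median of 11.54 in Ppara-/- livers and from 11.96 to 12.06 with a median of 12.04 in Ppara+/+ livers. The 6 Ppara+/+ livers were nearly alike, with an SD of 0.04, against 0.13 in Ppara-/- livers. The log2 fold change was -0.54 with SE 0.0531, 0.689 times the Ppara+/+ signal (adjusted p = 0.000211 from limma), and Abcd2 ranked 70 of 19938 genes by p.

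Abcd3 (PMP70), an abundant peroxisomal membrane protein that carries branched-chain acyl-CoA and C27 bile acid intermediates, ran from 10.93 to 11.15 with a median of 11.02 in Ppara-/- livers and from 11.19 to 11.35 with a median of 11.27 in Ppara+/+ livers. The ranges stood next to each other without overlap. The log2 fold change was -0.23 with SE 0.0464, 0.850 times the Ppara+/+ signal (adjusted p = 0.0217 from limma). The call was lost in 9 of 23 alternative fits, 8 of them leaving out a single array (Ppara-/- replicate 4, 5, 10 or 11, or Ppara+/+ replicate 1, 2, 8 or 9), with adjusted p up to 0.064 in those.

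The signal of Abcd2 fell further than that of Abcd3, again between different probe sets. The within-array difference between them was lower in Ppara-/- livers by an amount of -0.30, with no overlap between genotypes (exact permutation p = 0.00216, two-sided, adjusted p = 0.00864), a test likewise added after the values had been seen. From pup to pup the correlation of Abcd2 and Abcd3 was r = 0.65 (permutation p = 0.0262, adjusted p = 0.126) and rho = 0.71 (p = 0.0191, adjusted p = 0.373), with r = 0.64 without Ppara-/- replicate 10 and Ppara+/+ replicate 7, and it did not pass the adjustment.

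The genes most like Abcd3 were Usp24 (r = 0.96), Atg2b (0.91) and Hsd17b4 (0.91), n = 12 arrays. Hsd17b4, the peroxisomal D-bifunctional protein of β-oxidation, was itself lower in Ppara-/- livers (log2 fold change -0.80, adjusted p = 9.67e-08 from limma). For Abcd2 they were Tomm70a (0.92), Clcn2 (0.90) and Nfyb (0.90), of which none was called.

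**Figure D3:**
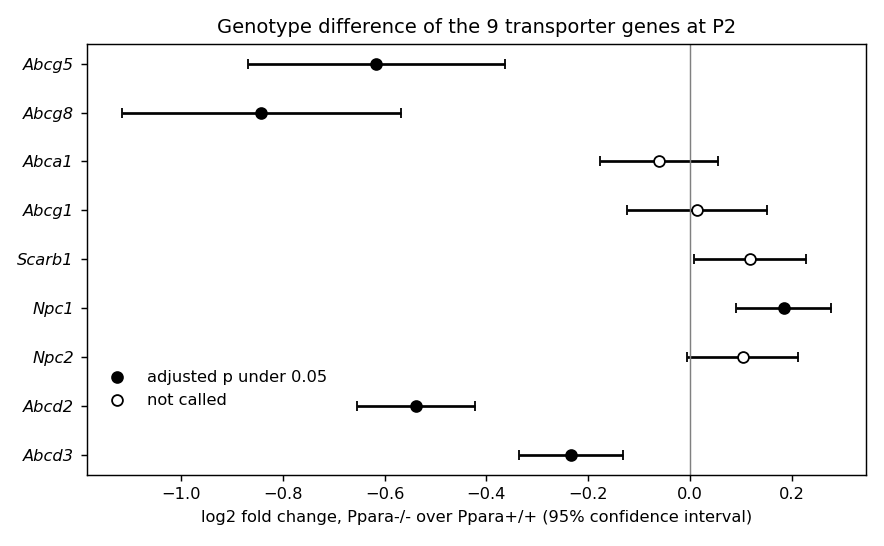
Log2 fold change of Ppara-/- over Ppara+/+ livers at P2 for the 9 transporter genes (horizontal axis) with 95% confidence intervals from limma; filled points had an adjusted p under 0.05. Abcg8 (-0.84), Abcg5 (-0.62), Abcd2 (-0.54) and Abcd3 (-0.23) lie below 0, Npc1 (0.18) above it, and the intervals of Abca1, Abcg1 and Npc2 include 0.

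The 5 called genes had the same sign in both sexes. In males and females the log2 fold changes were -0.90 and -0.78 for Abcg8, -0.65 and -0.58 for Abcg5, -0.49 and -0.58 for Abcd2, -0.23 and -0.24 for Abcd3, and 0.24 and 0.12 for Npc1. With 3 arrays per genotype and sex only Abcd2 of the 9 genes was called within a sex (adjusted p = 0.0186 in males and 0.00693 in females, limma), where 0.466% of all genes were lower in males and 0.487% in females. No interaction of genotype and sex was called for any of the 9 genes or for any other gene (0% of genes by limma, 1004 probe sets at an unadjusted p under 0.05, smallest adjusted p 0.693). The difference between the sexes in Npc1 response, 0.12, had an unadjusted p of 0.170, which does not show that the responses were equal.

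Genes around the transporters were described by counts. Of 9 measured lipoprotein partners of efflux 1 was higher and 0 were lower by limma (2 and 0 at an unadjusted p under 0.05). The called gene was Apoa4, an apolipoprotein of chylomicrons and HDL (0.55, adjusted p = 0.00854). Apoa4 was above every Ppara+/+ liver in all 6 Ppara-/- livers, as were 2.88% of all genes. The median over the list was 0.04.

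In the lysosomal and cytosolic route, 1 of 13 measured genes was higher and 0 were lower by limma (4 and 0 at an unadjusted p under 0.05), with a median of 0.06. It was Stard4, a cytosolic carrier of cholesterol (0.19, adjusted p = 0.0301). Of the 13 measured sterol-sensing regulators 1 was higher and 0 were lower (2 and 4 at an unadjusted p under 0.05), namely Insig1, which holds the SREBP precursors in the endoplasmic reticulum (0.39, adjusted p = 0.00932), and the list median was 0.03.

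Of 5 measured lipoprotein receptors and their regulators, Lrp1, a receptor for remnant particles, was lower (-0.29, adjusted p = 0.0211), and Vldlr, the receptor for very low density lipoprotein, was higher (0.44, adjusted p = 0.00194). Of 4 measured genes listed for cholesterol esterification and ester hydrolysis 2 were lower by limma. They were the carboxylesterase Ces1d (-0.45, adjusted p = 0.0124) and the neutral cholesteryl ester hydrolase Nceh1 (-0.40, adjusted p = 0.00208). The esterifying enzymes of that list, Soat1 and Soat2, were not measured, so these counts concern ester hydrolysis only.

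Of 13 measured genes listed for peroxisomal acyl-CoA import and membrane partners, 4 were lower by limma, as Abcd2 and Abcd3 were, and 0 higher. At an unadjusted p under 0.05 the numbers were 6 and 1, and the list median was -0.11. This list includes Abcd4 and Mpv17, neither of them called, and Abcd4 is also counted among the other ABC transporter genes. The largest falls among those called were in Pex16, a factor of peroxisomal membrane assembly (-0.59, adjusted p = 1.44e-05), Pxmp4, a peroxisomal membrane protein (-0.57, adjusted p = 6.06e-06), and Acbd5, an acyl-CoA binding tether of peroxisomes (-0.41, adjusted p = 0.00226). Slc27a2, an acyl-CoA synthetase for very long chain fatty acids, was the other called gene (-0.19, adjusted p = 0.00846).

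Of the 42 other ABC transporter genes 1 was higher and 0 were lower by limma, and their median was 0.01. The called gene was Abca6 (0.23, adjusted p = 0.00711). At an unadjusted p under 0.05 there were 6 lower and 6 higher of the 42, against 7.89% and 9.27% of all genes, and log2 fold changes ran from -0.24 to 0.23 over the 42 genes, so that none of them had a change of the size seen for Abcd2, Abcg5 or Abcg8. Of these 42 genes, 10 had a mean below the array medians, where RMA compresses differences, against 0 of the 9 transporters.

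**Figure D4:**
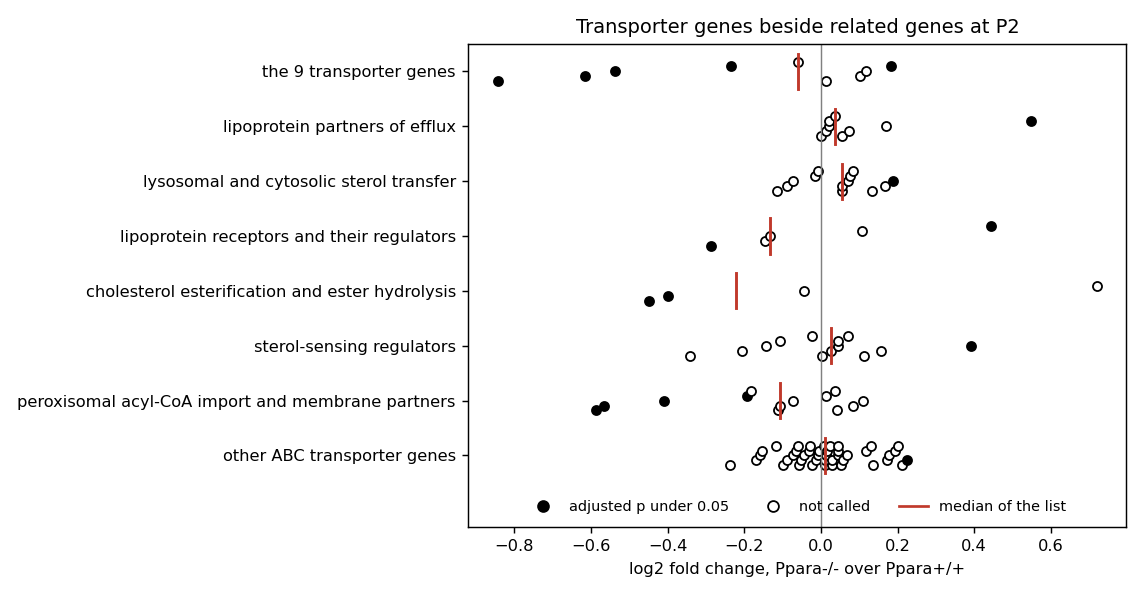
Log2 fold change of Ppara-/- over Ppara+/+ livers at P2 (horizontal axis) for each measured gene of the 9 transporters and of 7 related lists (rows); filled points had an adjusted p under 0.05 and the red bar is the median of each list. The 42 other ABC transporter genes lie between -0.24 and 0.23, while Abcg8, Abcg5 and Abcd2 lie below -0.5.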

How the data were processed

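RNA of whole P2 livers, with an integrity number above 8 per the labels, was hybridised to Affymetrix mouse gene arrays, and the authors summarised the probes by RMA, of a version the sources do not state. The deposited values are log2 signals that RMA had already normalized between arrays, and they entered the fits unchanged. RMA shrinks differences of dim probe sets, and the number of arrays sets the precision.

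Of 35556 probe sets 21789 name 1 gene, 1621 several and 12146 none here. A gene was read from its brightest probe set naming it alone. Each probe set was fitted with limma 3.58.1 in R 4.3.3 (lmFit and eBayes; genotype and sex; 9 residual and 2.49 prior degrees of freedom), two-sided, with Benjamini-Hochberg adjustment and a threshold of 0.05. Interaction and within-sex contrasts came from a fit of 4 groups. Correlations used residuals from genotype means, with 100000 permutations within genotypes. Calculations were tested on simulated data.

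Genes named were the 9 transporters, Ppara, in each pathway list up to 3 called genes per direction, and for each transporter the 3 most correlated genes. Slc27a2, a further call, was named after its values were seen. The transporters and lists were chosen with earlier results of these data known. Alternatives were other models, normalizations, filters, thresholds and left-out arrays; the tests between related genes, their alternatives and the AGATAA search were added after seeing the data.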

Additional observations from a re-analysis of the deposited data

Results flagged for a closer look

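In 4 of the 18 groups of 6 arrays (9 genes in each genotype) 1 array stood far from the other 5, by a gap that exceeds Dixon's 95% limit as a share of the group's range. Chance flags about 1 in 20 groups. In Ppara-/- livers, Abcg5 in replicate 6 was the lowest at 10.11 with the others at 10.27 to 10.34 (gap 0.697 of the range), Abcg1 in replicate 12 was the highest at 9.54 with the others at 9.37 to 9.42 (0.699), and Abcd2 in replicate 10 was the lowest at 11.24 with the others at 11.48 to 11.58 (0.704). In Ppara+/+ livers, Abcd2 in replicate 7 was the lowest at 11.96 with the others at 12.03 to 12.06 (0.719). Both far arrays of Abcd2 are females, and the call of Abcd2 held without either of them. Of 9 interactions of genotype and sex 0 were called by limma.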

How the results depend on the processing

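Over 23 alternative limma fits Abcg8 and Abcd2 were called lower in all 23, Abcg5 in 22, Abcd3 in 14 and Npc1, higher, in 8; Abca1, Abcg1, Scarb1 and Npc2 were called in none. The number of the 9 genes called higher, 1 as reported, was 0 under genotype alone without sex, 0 with 4 groups of genotype and sex, 0 after quantile normalization, 0 with a minimum of 1.2-fold, 0 with a minimum of 1.3-fold, 0 by the adjusted exact Mann-Whitney test and 0 with Ppara-/- replicates 6 and 10 left out together, and 2 at unadjusted p-values. The number called lower, 4, was 3 with a minimum of 1.2-fold and 3 with a minimum of 1.3-fold, since Abcd3 changed by less than either, and 0 by the adjusted exact Mann-Whitney test, and 2 with Ppara-/- replicates 6 and 10 left out together, when Abcg5 (adjusted p = 0.0840) and Abcd3 (0.0723) were lost. When single arrays were left out, the number called higher ranged from 0 to 1 and the number called lower from 3 to 4; the cause was not tested, beyond the fewer arrays.

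The log2 fold change of Abcg1 changed sign, between -0.018 and 0.065, when single arrays were left out. The genotype by sex interactions, none of which passed, ranged with single arrays left out from -0.30 to 0.12 for Abcg5, -0.37 to 0.047 for Abcg8, -0.11 to 0.029 for Abca1, -0.11 to 0.075 for Abcg1, -0.0060 to 0.16 for Abcd2 and -0.033 to 0.075 for Abcd3. After quantile normalization the genotype by sex interaction of Abcg1 was -0.013 and the genotype by sex interaction of Abcd3 was -0.000451. The differences between related genes kept their signs and their sides of the threshold in all 52 refits. Over all genes, 224 lower and 397 higher became 161 to 348 lower and 259 to 718 higher with single arrays left out, and 163 to 387 lower and 199 to 707 higher in the other fits; the highest numbers with 1 array left out came without Ppara+/+ replicate 7. At unadjusted p-values the numbers were 1573 lower and 1848 higher, with a minimum of 1.3-fold 113 and 141, and by the adjusted Mann-Whitney test 0 and 0 (1511 and 1851 unadjusted). No paired analysis by litter was possible because the labels do not give the litter of each pup. The 12 arrays limit what can be called; Npc1 and Abcd3 lie near the threshold.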
